A study of Mus musculus with 9 samples.

Results

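Integrins are the receptors with which cells hold on to the matrix around them, and laminins, fibronectin, vitronectin, tenascin-C, osteopontin and thrombospondin-1 are matrix proteins that integrins bind. The genes described here are every row of the deposited table whose symbol names an integrin α subunit, an integrin β subunit with a number, or a laminin α, β or γ chain, together with *Fn1*, *Vtn*, *Tnc*, *Spp1* and *Thbs1*. They are 42 of the 24421 rows: 18 α subunits, 8 β subunits, 11 laminin chains and 5 other matrix proteins. All 9 libraries carry the labels C57BL/6 and brain. The 3 control libraries and the 3 BAL libraries were made from SB28 cells, a mouse glioma line with GFP and luciferase, that had grown in the brains of mice given vehicle or BAL101553 (lisavanbulin), an oral prodrug that acts on microtubules and the spindle assembly checkpoint. The labels call this material whole tissue, whereas the methods describe a sort for GFP-positive cells without CD45 and CD11b; SB28 is 1 cell line, and whether animals were pooled is not stated. BAL tumors were collected later than control tumors to match tumor volume, so drug and time of growth cannot be told apart. The 3 Astro libraries carry the treatment label BAL101553 and the cell type label astrocytes, and how these cells were obtained is not given in the sources used here.

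An integrin is a pair of 1 α and 1 β subunit that spans the membrane. The β1 subunit pairs with many α subunits to form the main receptors for fibronectin, collagens and laminins, whereas β2 and β7 belong mostly to leukocytes. Inside the cell the β tail recruits talin and kindlin, which link it to actin at focal adhesions. A laminin is a trimer of 1 α, 1 β and 1 γ chain and is a core component of basement membranes, the sheets that surround brain vessels and line the brain surface. In glioma, integrins and their ligands are known for their part in adhesion to vessels and in invasion.

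Levels are CPM, the reads of a gene relative to its library total after TMM scaling over all 9 libraries, and 1 read is worth 0.0295 to 0.0449 CPM. Library totals lay between 22919523 and 34013875 counts. Pairs of libraries within a group differed by more than counting noise, with chi-square values of 14.3 to 64.9 per degree of freedom, so that each was counted as a replicate; p-values measure the spread between these libraries, which may be technical. The astrocyte genes *Slc1a2*, *Aqp4* and *Gfap* were high in the Astro libraries, where the 8 astrocyte markers summed to 11999 to 14749 CPM, but 6 oligodendrocyte markers summed there to 10282 to 12723 CPM and 14 microglia and macrophage markers to 700.1 to 1487 CPM, so that these libraries held RNA of several cell types. In the control and BAL libraries the astrocyte sum was 940.1 to 972 and 681 to 797 CPM, mostly *Gja1*, with *Slc1a2*, *Aqp4* and *Gfap* at most 1.61 CPM. There the oligodendrocyte sum was 18.7 to 20.6 and 15.3 to 18.9 CPM and the microglia and macrophage sum 47.6 to 57.7 and 46.7 to 63.2 CPM. In such bulk RNA, fewer cells of a type and less RNA per cell cannot be told apart.

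The SB28 cells expressed many integrin genes at very unequal levels. Of all 42 members, 24 had at least 100 reads in each of the 6 control and BAL libraries. To compare genes with each other, CPM was divided by the length in kilobases of the union of a gene's exons. On this scale *Itgb1*, the β1 subunit, was the highest integrin gene, at 1069 ± 105 (SD, n = 3) CPM per kb in control libraries. Next among the β subunits came *Itgb5*, which pairs with αv to bind vitronectin, at 136 ± 24.8, and *Itgb3*, which pairs with αv or αIIb, at 18.8 ± 2.12. These 3 genes did not overlap in level in any control or BAL library. Among α subunits *Itga5*, the fibronectin receptor subunit, led with 264 ± 13.4 (SD, n = 3) CPM per kb, ahead of *Itga6*, a laminin receptor subunit, with 43.7 ± 1.84, and *Itgav*, which recognizes RGD ligands, with 35.8 ± 2.13. *Itga6* and *Itgav* lay close together: their order in the BAL libraries was not constant, with 38.8, 40.3 and 37.2 against 42.7, 35.3 and 39.5 CPM per kb.

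On the ligand side *Spp1*, which encodes osteopontin, stood far above all other members, at 6489.5 ± 327 (SD, n = 3) CPM per kb in control libraries. *Tnc* (tenascin-C), *Fn1* (fibronectin) and *Thbs1* (thrombospondin-1) followed at 530.2 ± 105, 436 ± 47.1 and 286 ± 24.8. The levels of *Tnc* and *Fn1* overlapped, and which is higher depended on the length used: divided by the longest transcript, their means over the control and BAL libraries were 549 for *Tnc* and 698 for *Fn1*, against 502 and 497 with the union of exons. The laminin β1 and γ1 chains *Lamb1* and *Lamc1* were the highest laminin genes, at 193 ± 11.2 and 134 ± 17.9 CPM per kb, more than all laminin α chains together. The third, *Lamb2*, was at 14.2 ± 1.44 and within the spread of *Lama4* at 12.4 ± 2.44; with the longest transcript as length *Lama4* took the third place.

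At the other end, 5 members had at most 3 reads in each of the 6 control and BAL libraries: the leukocyte α subunits *Itgad*, *Itgal* and *Itgax*, *Itgae*, which pairs with β7 to bind E-cadherin, and the epithelial β6 subunit *Itgb6*. *Itgad* had no read in any of the 6 libraries, which allows a level of up to 0.0884 to 0.135 CPM in a library if 3 reads are taken as the limit, counting error only. *Itgam*, which encodes CD11b, had 1, 5 and 3 reads in control and 13, 6 and 2 reads in BAL libraries. The sort described in the methods used its protein and CD45, so that the low level of *Itgam* and the other leukocyte α subunits is no finding. *Vtn* (vitronectin) had 5, 7 and 1 and 12, 5 and 4 reads, *Lama1* 2, 2 and 0 and 5, 2 and 3, and *Itga11*, a collagen receptor subunit, 8, 3 and 2 and 16, 28 and 11. These 9 genes did not pass the filter on low counts in the comparison of BAL with control. The other 33 members were tested, and the counts and medians given here cover only those.

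BAL and control libraries were compared to ask how treatment with BAL101553, with its longer growth, was accompanied by changes in the adhesion genes of SB28 cells. The β1 integrin subunit and thrombospondin-1 fell, whereas 4 laminin chains, osteopontin and the α8 subunit rose. A gene was called when edgeR gave it an adjusted p under 0.05 among the 12633 tested. By this rule 8 of 33 members were called, or 24.2%, against 14.7% of all genes. Of these 8, 6 were higher and 2 lower; among all genes 8.64% were called higher and 6.09% lower. The median log2 fold change was 0.34 over the 33 members and 0.02 over all genes. The groups did not overlap for 19 of the 33 members (57.6%, against 39.7% of all genes), 13 higher and 6 lower in BAL. With library totals in place of TMM, 10 members were called higher and 2 lower, and 77.4% rather than 58.7% of all called genes were higher.

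**Figure D1:**
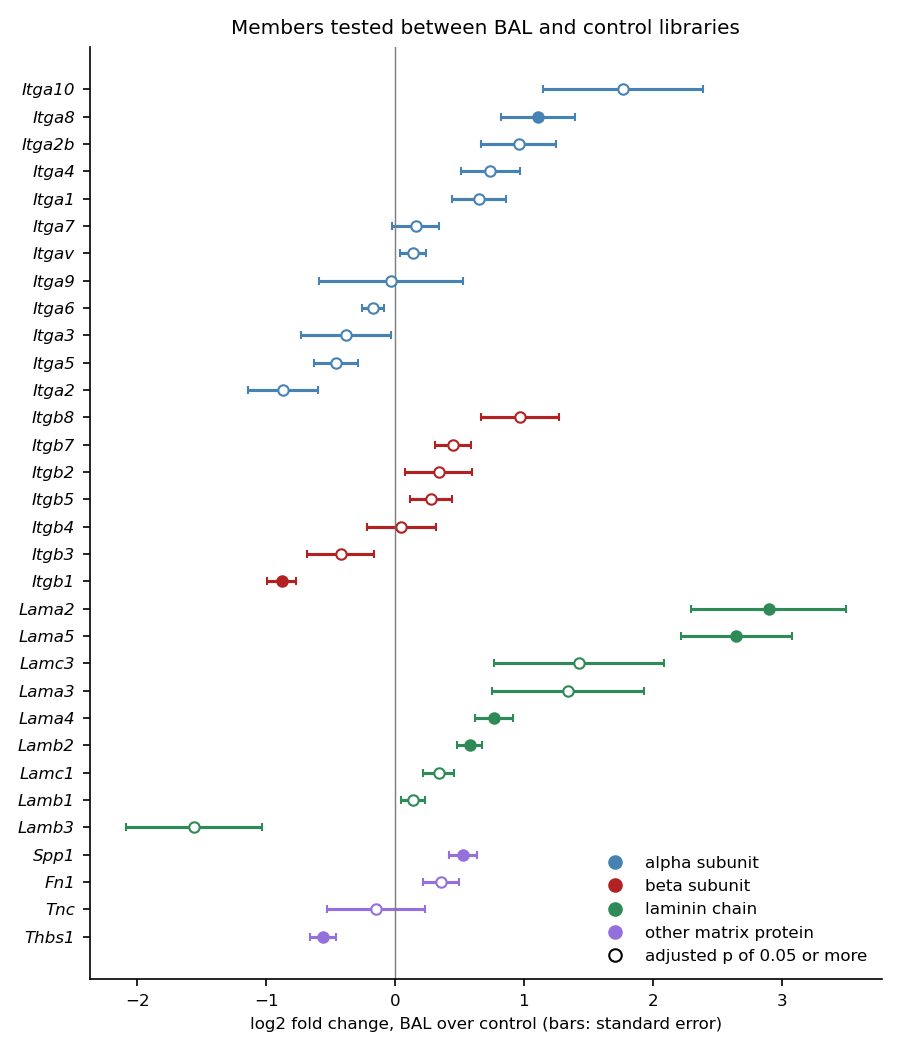
Log2 fold change of BAL over control libraries with its standard error for 32 of the 33 members tested, ordered by role (α subunits, β subunits, laminin chains, other matrix proteins). Filled points had an adjusted p under 0.05; *Lama2* at 2.90 and *Lama5* at 2.65 lie farthest to the right, and *Lamb3* at -1.56, drawn open, farthest to the left.

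*Itgb1* (chromosome 8, 128685654 to 128733200 on GRCm38) had 4797, 3942 and 4344 CPM in control libraries 1, 2 and 3 and 2468, 2303 and 2310.1 CPM in BAL libraries 1, 2 and 3. All BAL libraries were lower than all control libraries, and the BAL libraries differed little among themselves. The gene fell by 0.88 on the log2 scale (standard error 0.11, edgeR adjusted p = 0.00728), which leaves 0.543 of the control level. No other β subunit passed the test. *Itgb5* had 484 ± 88.3 CPM (SD, n = 3) in control and 583 ± 95.8 CPM (SD, n = 3) in BAL libraries, *Itgb3* 111 ± 12.5 CPM (SD, n = 3) and 82.5 ± 32.4 CPM (SD, n = 3), and their groups overlapped (edgeR adjusted p = 0.275 and 0.283). For *Itgb3* the BAL libraries lay wide apart, with 116, 50.9 and 80.7 CPM in libraries 1, 2 and 3.

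*Itgb8*, whose pair with αv activates latent TGF-β, had 3.14, 4.77 and 4.42 CPM in control and 11.6, 6.08 and 6.54 CPM in BAL libraries. *Itgb7*, known from lymphocyte homing, had 19.4, 20 and 16.8 and 24.5, 22.9 and 29.5 CPM. Both were higher in every BAL library than in every control library, but neither was called (log2 fold change 0.97, standard error 0.30, edgeR adjusted p = 0.0618 for *Itgb8* and 0.0611 for *Itgb7*). *Itgb4*, which pairs with α6 to bind laminin, and the leukocyte subunit *Itgb2* were low, at 11.9 and 1.81 CPM on average in control libraries, and their groups overlapped.

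No α subunit was called lower. Of the 12 α subunits tested 1 was called (8.33%), against 14.7% of all genes, so that the α subunits were not called more often than other genes. This was the higher *Itga8*, which forms a receptor for nephronectin and other RGD ligands with β1. It had 7.09, 5.57 and 7.16 CPM in control and 8.21, 17.3 and 17.0 CPM in BAL libraries, so that BAL library 1 lay just above the controls and libraries 2 and 3 well above. It rose by a log2 fold change of 1.11 (standard error 0.29, edgeR adjusted p = 0.0420). *Itga5* had 1361, 1312 and 1230.1 CPM in control and 1130.3, 692 and 1016 CPM in BAL libraries. It was lower in all BAL libraries, mostly in library 2, and was not called (log2 fold change -0.46, standard error 0.17, edgeR adjusted p = 0.107). *Itga6* had 403, 405 and 376 and 349.8, 364 and 336 CPM, a small difference without overlap that did not pass either (edgeR adjusted p = 0.206). *Itgav* had 389.7, 404 and 359 and 459, 379 and 425 CPM, with overlapping groups (edgeR adjusted p = 0.380).

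The collagen receptor subunits went in both directions without a call. *Itga2* had 63.3, 45.1 and 61.2 CPM in control and 35.7, 18.0 and 38.6 CPM in BAL libraries (log2 fold change -0.87, standard error 0.27, edgeR adjusted p = 0.0666). *Itga1* had 43.3, 24.6 and 31.4 and 59.1, 52.5 and 43.2 CPM, with control 1 just above BAL 3 (edgeR adjusted p = 0.0775). *Itga10* had 3.72, 21.9 and 6.02 and 29.8, 22.5 and 55.5 CPM (edgeR adjusted p = 0.0909). Here control 2 stood apart from the other controls and reached almost the lowest BAL library. Without control 2, *Itga10* was called higher (log2 fold change 2.87, edgeR adjusted p = 0.0229). Of the remaining α subunits tested, *Itga4*, which binds VCAM-1 and fibronectin, and *Itga2b*, the platelet αIIb subunit, did not overlap between the groups and were higher in BAL, at means of 10.3 against 17.2 and 1.77 against 3.42 CPM. The laminin receptor subunits *Itga3* and *Itga7* and the tenascin receptor subunit *Itga9* overlapped. The adjusted p of these 5 lay between 0.0591 and 0.970. The 5 platelet markers summed to at most 0.236 CPM in the 6 libraries. Of these *Ppbp* had 1, 0 and 0 reads in control and 2, 2 and 4 in BAL libraries, and *Pf4* 2, 1 and 0 and 1, 2 and 3. *Gp9* had 1 read, in BAL 3. *Gp1ba* and *Gp6* had none, and at most 1 read in an Astro library. The part of platelets in the *Itga2b* level was not tested.

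The α subunits known to pair with β1 (*Itga1* to *Itga11* and *Itgav*) were summed for each library. Per kb of exon, *Itgb1* was 2.94, 2.50 and 2.88 times the sum of its α partners in control libraries 1, 2 and 3 and 1.71, 2.26 and 1.69 times in BAL libraries. The 2 groups did not overlap, and this is given as a description without a test. Divided by the longest transcript, the mean ratios were 2.30 ± 0.202 (SD, n = 3) and 1.51 ± 0.200 (SD, n = 3). Within the sum, *Itga5* made up 68.4 ± 0.836 (SD, n = 3) percent in control and 60.9 ± 4.31 (SD, n = 3) percent in BAL libraries, *Itga6* 11.4 and 12.8 percent, and *Itgav* 9.29 and 12.7 percent. Among the β subunits the share of *Itgb1* was 89.5, 83.8 and 86.3 percent in control and 73.5, 78.7 and 73.8 percent in BAL libraries, and that of *Itgb5* 8.40, 13.9 and 11.2 and 22.5, 18.7 and 22.6 percent. The β pool was thus less dominated by β1 in BAL libraries, with β5 at a larger share.

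**Figure D2:**
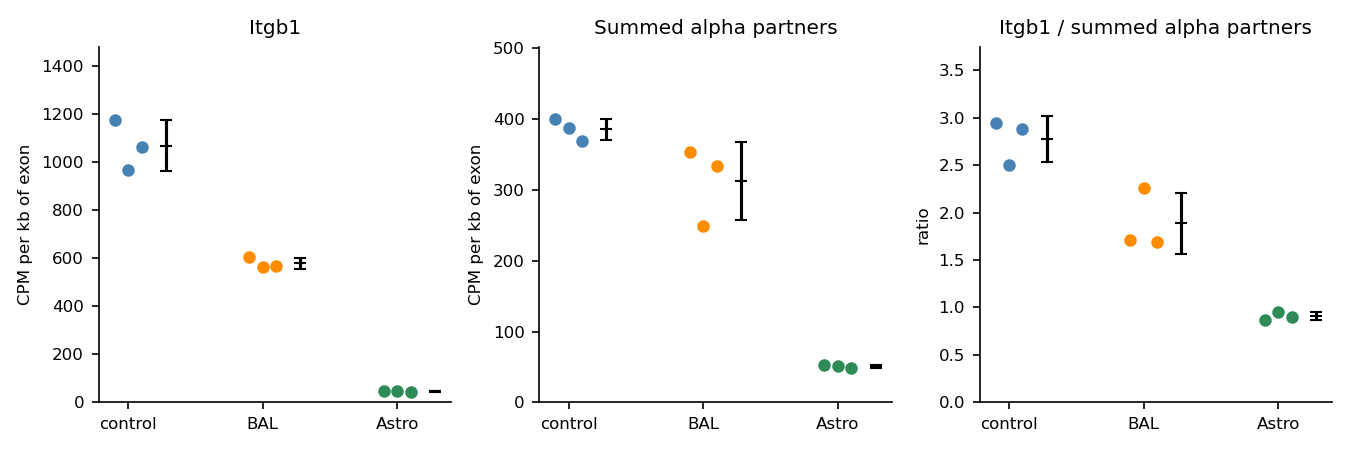
Level of *Itgb1*, of its summed α partners (both CPM per kb of exon) and their ratio in each control, BAL and Astro library, with the mean and SD of each group beside the points. *Itgb1* has a group mean of 1069 in control, 578 in BAL and 46.3 in Astro libraries, and the ratio falls in the same order.

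Among the laminin chains, 4 of 10 tested were called and all 4 were higher in BAL, against 14.7% of all genes called and 8.64% called higher. *Lama5* (chromosome 2, 180176373 to 180225859), the α chain of laminins found under mature vessels and epithelia, had 52.5, 45.9 and 31.8 CPM in control and 399.7, 298 and 113 CPM in BAL libraries. Every BAL library was above every control library, although BAL 3 lay far below BAL 1. It rose by a log2 fold change of 2.65 (standard error 0.43, edgeR adjusted p = 0.0129), or 6.26-fold. *Lama4* (chromosome 10, 38965515 to 39110188), the α chain of vessel-wall and mesenchymal laminin, had 135, 129.5 and 183 CPM in control and 227, 275 and 256 CPM in BAL libraries, without overlap. Its rise was 1.70-fold (log2 fold change 0.77, standard error 0.15, edgeR adjusted p = 0.0189).

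*Lama2* (chromosome 10, 26980036 to 27619758), the α chain of the laminin of muscle and nerve, was low, with 6, 20 and 13 reads or 0.269, 0.758 and 0.547 CPM in control and 62, 187 and 84 reads or 2.12, 7.38 and 2.47 CPM in BAL libraries. The groups did not overlap, and BAL 2 stood above the other BAL libraries. The gene rose (log2 fold change 2.90, standard error 0.60, edgeR adjusted p = 0.0228), with a log2 fold change of 2.11 without BAL 2. *Lamb2* (chromosome 9, 108479736 to 108490530), the β2 chain, had 87.2, 94.2 and 76.8 CPM in control and 133, 125 and 128 CPM in BAL libraries. Its BAL libraries lay closer together than those of the other called laminins, and it rose (log2 fold change 0.58, standard error 0.096, edgeR adjusted p = 0.0133).

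The chains that dominate by level moved little. *Lamb1* had 1832, 2039 and 1865 CPM in control and 2029, 2069.6 and 2191 CPM in BAL libraries, with overlap (edgeR adjusted p = 0.327). *Lamc1* had 977, 1269 and 1075 and 1302, 1508 and 1381 CPM, and every BAL library was higher, without a call (log2 fold change 0.34, standard error 0.12, edgeR adjusted p = 0.0919). Chains of epithelial laminins did not share a direction. *Lamb3* had 10.8, 10.8 and 8.63 and 4.51, 0.789 and 4.89 CPM, lower in all BAL libraries and not called (log2 fold change -1.56, standard error 0.53, edgeR adjusted p = 0.0821), whereas *Lama3* had 6, 11 and 16 and 60, 12 and 31 reads, with overlap (log2 fold change 1.34, edgeR adjusted p = 0.154). *Lamc3* was at most 3.27 CPM in the 6 libraries, and its groups overlapped.

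Counted per kb of exon, the sum of the laminin α chains was 15.8, 14.9 and 18.0 in control and 54.3, 49.4 and 31.4 in BAL libraries, while the β sum was 208 ± 12.4 (SD, n = 3) and 233 ± 8.42 (SD, n = 3). The γ sum was 139 ± 17.7 (SD, n = 3) and 174 ± 13.2 (SD, n = 3). By RNA the α sum was thus the lowest of the 3 in both groups, and the protein trimer was not measured. *Lama5* made up 29.1, 27.1 and 15.5 percent of the α sum in control and 64.7, 52.9 and 31.6 percent in BAL libraries, and *Lama4* nearly all of the rest. *Lama5* exceeded *Lama4* in BAL 1 and BAL 2, with ratios of 1.86 and 1.15, but not in BAL 3, with 0.468. With the longest transcript as length the ratios were 0.934, 0.575 and 0.234 in BAL libraries 1, 2 and 3, so that *Lama5* then stayed below *Lama4* in each. Markers of vessel cells were read beside the laminins. The endothelial genes *Cldn5* and *Pecam1* were at most 1.48 and 1.21 CPM in the 6 libraries, the 8 endothelial markers summed to 741 to 868 CPM in control and 517 to 647 CPM in BAL libraries, mostly *Cdh5*, and 1 of 7 tested was called, lower. The mural genes *Kcnj8* and *Abcc9* had at most 3 reads in each library, while the 5 mural markers summed to 227 to 272 and 357 to 381 CPM, mostly *Pdgfrb*. Of the 3 mural markers tested *Pdgfrb* rose 1.48-fold and *Rgs5* fell by 2.36 on the log2 scale (edgeR adjusted p = 0.0144 and 0.0371), and *Notch3* was not called. The part of these cells in the laminin values was not tested.

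**Figure D3:**
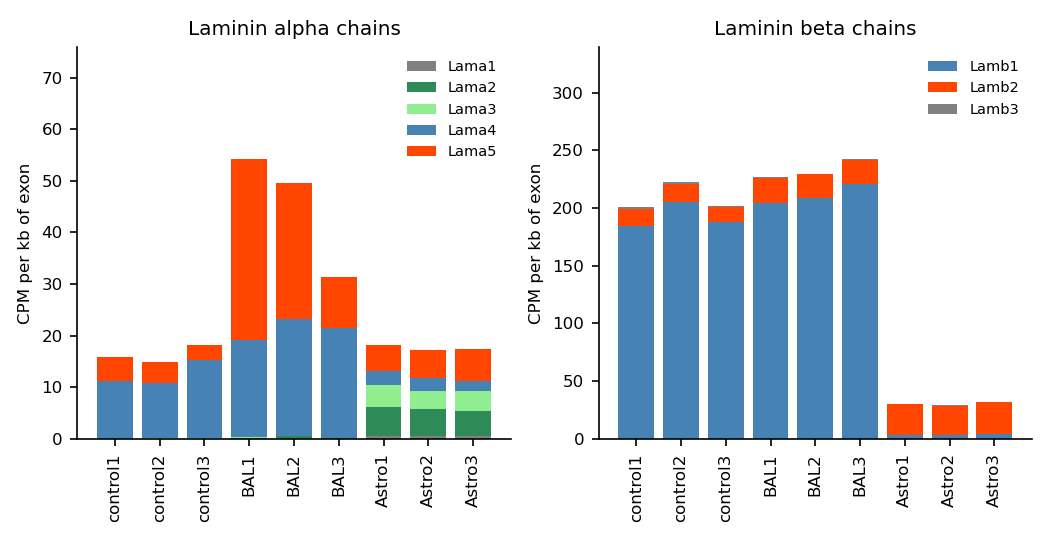
Stacked levels of the laminin α and β chains (CPM per kb of exon, linear axes that differ between panels) in the 9 libraries. *Lama5* is the part of the α bar that differs most between control and BAL libraries, and *Lamb2* takes up most of the β bar in the Astro libraries.

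Of the other matrix proteins, *Spp1* rose and *Thbs1* fell. *Spp1* (chromosome 5, 104435118 to 104441050) had 11317, 10386 and 10381 CPM in control and 13923, 16283 and 16104 CPM in BAL libraries, without overlap, and rose 1.45-fold (log2 fold change 0.53, standard error 0.11, edgeR adjusted p = 0.0235). *Thbs1* (chromosome 2, 118111876 to 118127133), which binds CD47 and can activate latent TGF-β, had 1562, 1805 and 1837 and 1225, 1176 and 1117 CPM. All BAL libraries were lower, and the gene fell by 0.56 on the log2 scale (standard error 0.10, edgeR adjusted p = 0.0160). *Fn1* had 5168, 4509.6 and 5603 CPM in control and 6670.1, 7262 and 5621 CPM in BAL libraries; its lowest BAL library was only just above its highest control library, and it was not called (log2 fold change 0.36, standard error 0.14, edgeR adjusted p = 0.108). *Tnc* varied widely within the BAL group, with 4199.7, 3268 and 4894 and 2875, 6181 and 1994 CPM. BAL 2 was the highest and BAL 3 the lowest of all 6 libraries, so that no direction could be given (edgeR adjusted p = 0.803).

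**Figure D4:**
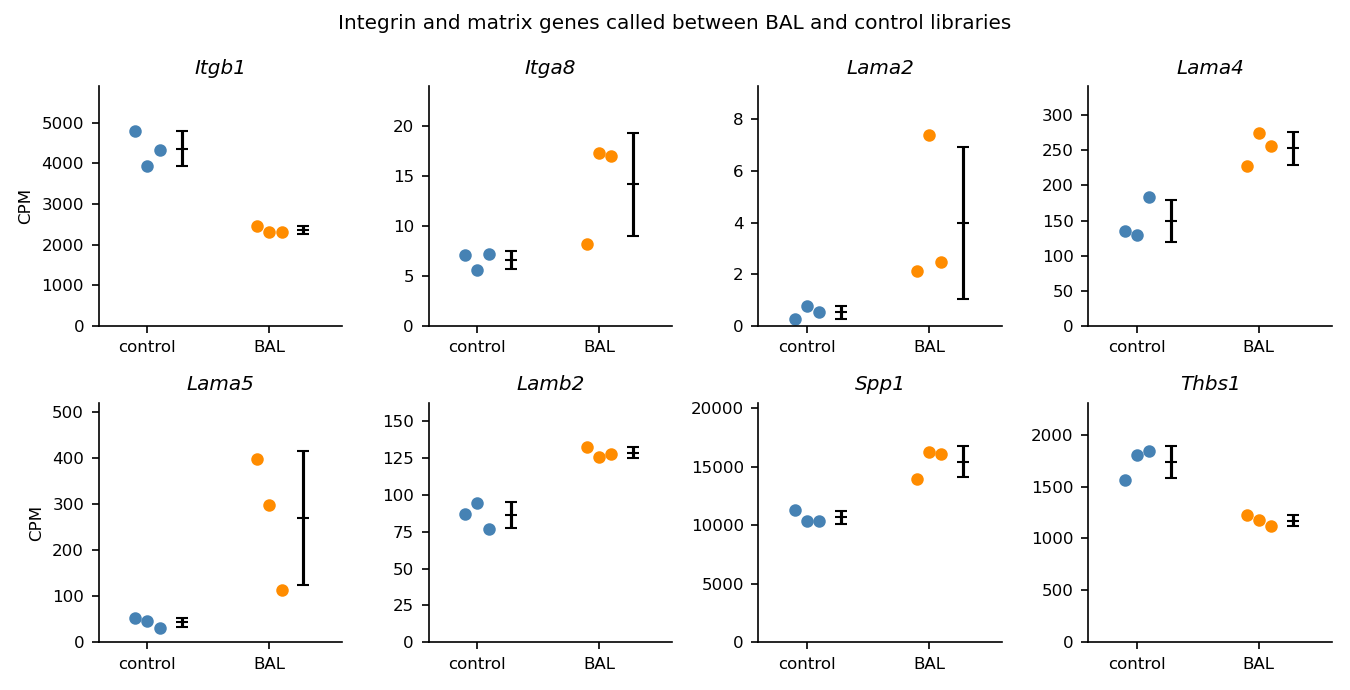
CPM of the 8 called members in the 3 control and 3 BAL libraries (points, linear axes from 0 that differ between panels), with the mean and SD of each group beside them. *Itgb1* and *Thbs1* are lower in every BAL library and the other 6 genes higher; relative to their mean the BAL libraries lie widest apart in *Lama2*, *Lama5* and *Itga8*.

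Most of these calls depended on single libraries. *Itgb1* was the only member called in all 6 fits that left out 1 library. *Lama5* and *Lamb2* lost the call without control 3 (edgeR adjusted p = 0.0631 and 0.0570), *Thbs1* without control 3 or BAL 3 (0.0734 and 0.0534), *Lama2* without control 1 or control 3 (0.0726 and 0.0894), and *Lama4* without control 1 or BAL 3 (0.0697 and 0.0548). *Spp1* lost it in 4 of the 6 fits, without any 1 control library or BAL 3 (0.0626 to 0.0995), and *Itga8* in 5, all but that without BAL 1 (0.0804 to 0.119). All 8 kept their direction in these fits. Other members gained a call when 1 library was left out, which were *Itga10* as given, *Itga1* and *Itga4* without control 1 (edgeR adjusted p = 0.0478 and 0.0407), and *Itga2*, *Itga2b*, *Itgb8* and *Lamb3* without BAL 2 (0.0497, 0.0353, 0.0465 and 0.0188). The number of members called was 2 without control 3 and 4 without BAL 3, against 193 and 668 of all genes. Without both control 3 and BAL 1, no member and 1 gene of all passed the edgeR test, with 13 members at an unadjusted p under 0.05, and all 8 kept their direction there too.

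RefSeq promoters were read for the called members that stayed called in at least 13 of the 16 alternatives, to show the sequence in front of them. These were 5 genes, of which 4 had an entry (GRCm38.p6); *Lama4* did not. The 250 bases before each start are printed 5′ to 3′ on the strand of the gene, with capitals at matches, on either strand, to the GC box GGGCGG, the AP-1 site TGANTCA, the TEAD site GGAATG, the CArG box of serum response factor or the TATA box TATAAA. The RefSeq starts of *Lama2* and *Lamb2* lie inside these genes as GENCODE draws them.
Itgb1, chr8:128685404-128685653, plus strand: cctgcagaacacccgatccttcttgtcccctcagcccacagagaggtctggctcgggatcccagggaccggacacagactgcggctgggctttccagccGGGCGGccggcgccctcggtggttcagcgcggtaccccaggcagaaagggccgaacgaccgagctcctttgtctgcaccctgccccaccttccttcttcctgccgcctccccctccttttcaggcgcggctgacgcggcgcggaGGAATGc
Lama5, chr2:180225860-180226109, minus strand: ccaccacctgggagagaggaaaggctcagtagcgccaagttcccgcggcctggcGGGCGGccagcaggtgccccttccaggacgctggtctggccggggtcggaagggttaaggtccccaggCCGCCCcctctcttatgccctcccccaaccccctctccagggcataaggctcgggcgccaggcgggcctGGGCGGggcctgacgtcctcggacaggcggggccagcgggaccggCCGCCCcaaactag
Lama2, chr10:27616943-27617192, minus strand: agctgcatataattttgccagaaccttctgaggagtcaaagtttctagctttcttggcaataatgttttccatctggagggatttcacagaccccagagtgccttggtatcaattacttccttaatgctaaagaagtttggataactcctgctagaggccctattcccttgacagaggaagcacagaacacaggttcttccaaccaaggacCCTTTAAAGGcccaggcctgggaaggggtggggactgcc
Lamb2, chr9:108479612-108479861, plus strand: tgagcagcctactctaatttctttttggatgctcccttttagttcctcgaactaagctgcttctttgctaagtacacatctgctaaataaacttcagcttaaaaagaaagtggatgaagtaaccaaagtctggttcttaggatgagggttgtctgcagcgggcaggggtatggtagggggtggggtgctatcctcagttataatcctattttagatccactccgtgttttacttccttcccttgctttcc

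In these windows *Itgb1* had 1 GC box and 1 TEAD match, at -7 to -2 from the start, *Lama5* had 4 GC boxes, *Lama2* had 1 CArG match at -39 to -30, and *Lamb2* had none of the 5 motifs. Of 32851 promoters in the table, 32.7% held a GC box, 12.6% the TEAD letters, 12.4% the TATA letters, 6.75% the AP-1 letters and 1.47% a CArG box in the same window. GC content was 68.0% and 72.4% for *Itgb1* and *Lama5* and 47.2% and 43.6% for *Lama2* and *Lamb2*, against a median of 52.4% over the table. No motif of the 5 was in all 3 windows of the genes that rose.

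The genes that work with integrins were taken from 3 further lists, chosen with earlier results of these data known. Fits with 1 library left out are not given for these lists. Among all genes the number called went from 1860 to 193 without control 3. Among the adhesion adaptors, which carry force from the β tail to actin, 9 of 29 tested were called (31%), 8 lower and 1 higher, with a median log2 fold change of -0.18, against 14.7% called, 6.09% called lower and a median of 0.02 over all genes. Those that fell were talin *Tln1*, the actin crosslinkers *Flna* and *Actn4*, the LIM proteins *Zyx* and *Tgfb1i1*, *Vasp*, the kinase-like adaptor *Ilk* and the docking protein *Bcar1*, by between 0.36 and 0.60 on the log2 scale. *Flna*, the most abundant, had 6220.4, 5871 and 5697 CPM in control and 4058, 4109.5 and 3521 CPM in BAL libraries (log2 fold change -0.60, standard error 0.11, edgeR adjusted p = 0.0159). The tensin *Tns2* rose, from 77.1, 93.2 and 99.3 to 184, 149 and 175 CPM (log2 fold change 0.92, standard error 0.12, edgeR adjusted p = 0.00787). *Tgfb1i1* lay at the threshold.

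Of the basement membrane partners and other laminin receptors, 1 of 13 tested was called (7.69%), the netrin *Ntn1*, which was 1.54-fold higher in BAL (edgeR adjusted p = 0.0281). Of the other integrin ligands and membrane partners, 10 of 20 tested were called (50%), 7 higher and 3 lower, with a median log2 fold change of 0.50, beside the 14.7% of all genes called, 8.64% higher and 6.09% lower. *Postn* (periostin), an αv ligand, had 15.8, 28.6 and 21.3 CPM in control and 143, 334 and 134 CPM in BAL libraries and rose 9.32-fold (log2 fold change 3.22, standard error 0.40, edgeR adjusted p = 0.00728). *Vcam1*, the ligand of α4β1, had 40.5, 58.4 and 56.4 and 100.2, 99.8 and 120.2 CPM and rose 2.07-fold (log2 fold change 1.05, standard error 0.15, edgeR adjusted p = 0.00934). *Tnn*, *Thbs3*, *Dmp1*, *Fbln5* and the caveolin *Cav1* also rose, with log2 fold changes between 0.95 and 2.76. *Ibsp* (bone sialoprotein) and the tetraspanins *Cd151* and *Cd81*, which associate with integrins, fell by 1.61, 0.72 and 0.40 on the log2 scale. *Ibsp*, *Dmp1* and *Spp1* belong to 1 family of RGD ligands, and here *Ibsp* fell while *Dmp1* and *Spp1* rose.

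The Astro libraries were compared with the BAL libraries, which carry the same treatment label and differ in the cells sampled. Fibronectin, its receptor subunit α5, osteopontin, tenascin-C and laminin β1 were far lower in Astro, whereas vitronectin was far higher. The leukocyte α subunits were higher too, but the sort described for SB28 cells left out cells with CD45 or CD11b, so that this is no finding. By the edgeR rule 38 of 40 members tested were called (95.0%), against 85.1% of all 15314 genes tested, 16 higher and 22 lower in Astro. The groups did not overlap for 38 members (95.0%, against 87.8% of all genes). Since 7 members passed the filter only with the Astro libraries (*Itga11*, *Itgad*, *Itgal*, *Itgam*, *Itgax*, *Lama1* and *Vtn*), the counts describe the members tested and support nothing further. No p is given for these 7 members. The median log2 fold change was -1.26 over the 40 members tested and 0.18 over all genes. Among all genes 46.3% were called higher and 38.9% lower. With library totals or upper quartiles in place of TMM, the median of all genes moved to 0.39 and 0.36, and the fold changes given here are on the TMM scale. *Itgae* and *Itgb6* were too low to be tested, with 6, 11 and 11 and 6, 4 and 3 reads in the Astro libraries.

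Matrix protein genes and the fibronectin receptor subunit *Itga5* showed the largest differences downward. *Spp1* had 14.1, 19.7 and 52.9 CPM in Astro libraries 1, 2 and 3, far under the 13923 to 16283 CPM of the BAL libraries (log2 fold change -9.05, standard error 0.61, edgeR adjusted p = 2.76e-06), with a log2 fold change of -9.81 without Astro 3, its highest library. *Tnc* had 17.9, 10.9 and 21.4 CPM (log2 fold change -7.76, standard error 0.55, edgeR adjusted p = 3.61e-06), and *Fn1* 97.9, 116 and 121 CPM (log2 fold change -5.85, standard error 0.18, edgeR adjusted p = 4.94e-08). *Itga5*, the α subunit that binds fibronectin, was at 8.38, 9.35 and 11.5 CPM (log2 fold change -6.59, standard error 0.26, edgeR adjusted p = 1.51e-07). *Lamb1* was at 30.7, 29.3 and 40.5 CPM (log2 fold change -5.95, standard error 0.17, edgeR adjusted p = 3.87e-08). For each of these 5 genes every Astro library was below every BAL library.

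*Vtn* differed most in the other direction. It had 629, 682 and 583 CPM in the Astro libraries, from 20396, 19760 and 15453 reads, and 12, 5 and 4 reads in the BAL libraries, a log2 fold change of 11.36, or 11.98 without BAL 1. Vitronectin is made in brain mainly by pericytes, and the mural genes *Kcnj8* and *Abcc9*, with at most 3 reads in each SB28 library, had 28.1, 36.6 and 32.4 and 75.4, 103 and 84.2 CPM in Astro libraries. Of the 5 mural markers 4 were called higher in Astro than in BAL, beside 46.3% of all genes tested. *Pdgfrb* was called lower (log2 fold change -0.60, edgeR adjusted p = 0.000167), beside 38.9% of all genes. The summed level of these markers was 357 to 381 CPM in BAL and 535 to 625 CPM in Astro libraries. Their part in the *Vtn* level was not tested. Per kb, *Vtn* was the highest member there, at 311 ± 24.2 (SD, n = 3), ahead of *Itgb5*, its receptor subunit, at 50.6 ± 3.09, *Itgb1* at 46.3 ± 2.25, *Lamb2* at 26.8 ± 1.01 and *Itgb4* at 23.4 ± 3.13. *Itgb5* and *Itgb1* were near each other, with 47.6, 50.4 and 53.8 against 45.9, 48.7 and 44.3 CPM per kb in libraries 1, 2 and 3. The β pool of the Astro libraries was thus shared by β5, β1 and β4, with 39.0 ± 2.99 (SD, n = 3), 35.7 ± 0.616 (SD, n = 3) and 18.0 ± 2.19 (SD, n = 3) percent.

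**Figure D5:**
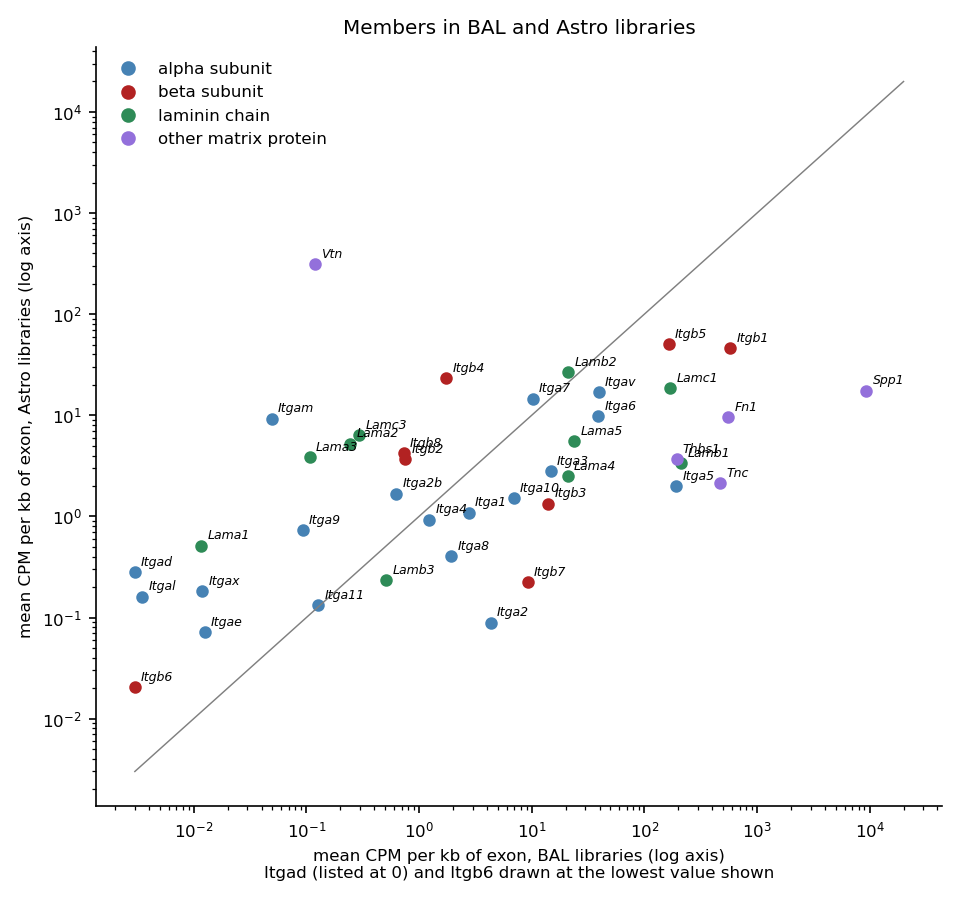
Mean level of 41 of the 42 members in BAL (x axis) and Astro libraries (y axis), in CPM per kb of exon on log axes, with the line of equal level; points stand for genes, coloured by role, and *Itgad* (no read in BAL) and *Itgb6* are drawn at the lowest value shown. *Spp1* lies far below the line and *Vtn* far above it, at 311 CPM per kb in Astro libraries.

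The sort described for SB28 cells left out cells with CD45 or CD11b, so that low leukocyte genes in BAL libraries are no finding. The leukocyte subunits were found in the Astro libraries. *Itgam* had 26.2, 74.7 and 38.3 CPM there, with a log2 fold change of 7.59, or 8.37 without BAL 1, *Itgal* 21, 48 and 23 reads and *Itgax* 15, 46 and 15 reads. *Itgal* had 2 reads in the BAL libraries together, which gives an Astro to BAL ratio of 46.3 with an exact 95% counting interval from 12.5 to 388. *Itgad* had 35, 36 and 39 reads against none. With 3 reads over the 3 BAL libraries taken as the limit it was 36.9-fold higher, and its exact 95% counting interval starts at 29.5. *Itgam*, *Itgal*, *Itgax* and *Itgb2* were all highest in Astro 2, as were the microglial genes *Csf1r*, with 160.2, 331 and 233 CPM, and *C1qa*, with 56.2, 140 and 99.1 CPM; *Itgad* was not. The part of microglia in these levels was not tested.

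Laminin chains went in both directions. *Lama1*, *Lama2*, *Lama3*, *Lamc3* and *Lamb2* were higher than in BAL libraries, and *Lama4*, *Lama5*, *Lamb1* and *Lamc1* lower. *Lama1* had 4.93, 4.31 and 5.70 CPM, from 160, 125 and 151 reads against 5, 2 and 3 in BAL libraries, a log2 fold change of 5.42. Of the α sum, *Lama5*, *Lama2* and *Lama3* made up 31.4 ± 3.74 (SD, n = 3), 29.6 ± 1.93 (SD, n = 3) and 21.8 ± 1.78 (SD, n = 3) percent, and *Lama4* 14.2 percent. With the longest transcript *Lama2* led, and the mean shares of *Lama2*, *Lama5*, *Lama4* and *Lama3* were 37.2, 23.3, 21.0 and 16.4 percent. *Lamb2* made up 88.2 ± 1.52 (SD, n = 3) percent of the β sum, against 9.08 ± 0.486 (SD, n = 3) percent in BAL libraries. Its own level differed far less than that of *Lamb1*, with 162, 158 and 169.7 CPM in Astro and 133, 125 and 128 CPM in BAL libraries (log2 fold change 0.36, standard error 0.076, edgeR adjusted p = 0.00231). The sum of the α chains per kb was 17.6 ± 0.527 (SD, n = 3) in Astro and 16.2 ± 1.64 (SD, n = 3) in control libraries, whereas with the longest transcript it was 23.9 ± 1.10 (SD, n = 3) in Astro and 28.6 ± 4.05 (SD, n = 3) in control libraries, so that their order depends on the length used. Of the 8 endothelial markers 6 were called higher in Astro than in BAL and 1, *Cdh5*, lower, beside 46.3% and 38.9% of all genes. *Cldn5* had 63.7, 59.6 and 60.6 CPM in Astro and at most 0.889 CPM in BAL libraries. The endothelial sum was 201.4 to 237.5 CPM in Astro and 517 to 647 CPM, mostly *Cdh5*, in BAL libraries. The part of vessel cells in these laminin values was not tested.

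Of the other integrin subunits, *Itga7*, *Itgb4*, *Itgb8*, *Itga9* and *Itga2b* were higher in Astro than in BAL libraries, with log2 fold changes between 0.54 for *Itga7*, whose call was lost without BAL 1 (edgeR adjusted p = 0.0638), and 3.74 for *Itgb4*. *Itgb1*, *Itgb3*, *Itgb5*, *Itgb7*, *Itgav*, *Itga6*, *Itga3*, *Itga2*, *Itga1*, *Itga8* and *Itga10* were lower, with log2 fold changes between -5.60 for *Itga2* and -1.19 for *Itgav*. *Itga4* was called lower at a log2 fold change of -0.39 (edgeR adjusted p = 0.0328), a call lost without any 1 Astro library or BAL 3 (adjusted p between 0.0524 and 0.113) and with other scalings (0.0516 to 0.271). *Itga11* was not called, at a log2 fold change of 0.10 with overlapping groups. *Lamb3* did not pass the test either (edgeR adjusted p = 0.109). Without BAL 2, the library with the lowest *Lamb3* level, *Lamb3* was called lower (edgeR adjusted p = 0.000675).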

How the data were processed

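The authors made stranded libraries from total RNA, aligned them with TopHat, took summary metrics from PicardTools, and named HTSeq as well as Rsubread featureCounts for counting; the submitters' processing notes name HTSeq 0.6.1 and mm10. The values deposited are whole-number counts per gene symbol without normalization, in 9 libraries. The gene annotation, and which counter made the table, are not given in the sources used here. The paper's methods name 2 ex vivo samples per group, whereas the table holds 3 each of control and BAL101553. Among the gene names, 27 had been turned into dates; these rows stayed in library sizes.

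The tests were run with edgeR 4.0.16 under R 4.3.3 (filterByExpr, TMM, two-sided quasi-likelihood F test, p-values adjusted by Benjamini-Hochberg across every gene in a fit, threshold 0.05); limma 3.58.1 and DESeq2 1.42.0 served as alternatives. Only the 2 groups compared entered each fit. A standard error was taken as |log2 fold change| over the root of F. Lengths and positions came from GENCODE vM21 (GRCm38), in which all 42 members matched by symbol. Tested on simulated counts with 200 of 12633 genes changed 2-fold, the BAL against control fit recovered 131 with 12 false calls; for Astro against BAL, with 200 of 15314 changed, it recovered 134 with 7. Members, gene lists and tests were chosen with earlier results of these data known. Counts cover every member, and 1 member is not reported here by itself; full statistics went to members called in BAL against control, the 3 highest per role, and the 5 largest rises and falls in Astro against BAL. At these depths the spread between libraries exceeds counting error except for genes with a few reads.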

Additional observations from a re-analysis of the deposited data

How the results depend on the processing

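Results were recomputed with DESeq2's Wald test, limma-trend, RLE, upper-quartile and library-total scaling, a looser and a mean-count filter, a joint fit of the 9 libraries, fits without each library in turn and the replicate number as a block. For BAL against control, 462 of the member values kept their direction and side of the threshold, 31 lost a call, 25 gained one and 10 turned sign; for Astro against BAL these numbers were 586, 10, 1 and 3. The 8 members called in BAL against control became 16 with DESeq2 and 0 without control 3 and BAL 1 (left out together because the methods name 2 samples per group and an earlier reading of these data singled out the others), and with 1 library left out lay between 2 (without control 3) and 11 (without BAL 2). The 1860 genes called became 2802 with DESeq2, 3022 with all 9 libraries in one model and 1 without control 3 and BAL 1, and with 1 library left out lay between 193 (without control 3) and 1712 (without BAL 2), with 458 without control 1, 668 without BAL 3 and 1133 without BAL 1. With all 9 libraries in one model *Spp1* and *Thbs1* lost the call (adjusted p = 0.362 and 0.173). The causes were not tested. Same-numbered control and BAL libraries deviated together with correlations of 0.102, 0.005 and 0.113, against -0.146 to 0.052 for libraries with different numbers. Numbers 1 and 3 thus lay above all of these, but control 2 correlated better with BAL 3 than with BAL 2. The numbers were not taken to pair libraries. With the replicate block 7 members and 1371 genes were called, *Itga8* and *Spp1* lost the call (adjusted p = 0.0708 and 0.0644) and *Itga2* gained it (0.0234). With the block, Astro against BAL gave 37 members and 12815 genes; every alternative there stayed within 1.5 times of the 38 members and 13039 genes.

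The values that turned sign were all uncalled. With 1 library left out, log2 fold changes in BAL against control ran from -0.05 to 0.30 for *Itga7*, from -0.67 to 0.40 for *Itga9*, from -0.19 to 0.29 for *Itgb4* and from -0.76 to 0.15 for *Tnc*, and in Astro against BAL from -0.24 to 0.65 for *Itga11*. With library totals *Itga9* had 0.04, and without control 3 and BAL 1 *Itga9* had 0.20, *Itgb4* -0.03 and *Tnc* 0.14. Of the 12 members named as the highest of their role, 11 were so with the longest transcript as length. Fold changes of members with a few reads are limited by depth.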

Other observations

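Genes named after integrin β subunits but outside the rule were read after the values of the members were known. *Itgbl1*, which encodes an integrin β-like protein without the ligand-binding part of a β subunit, had 209, 190.4 and 223 CPM in control, 176, 79.8 and 176 CPM in BAL and 1.42, 1.24 and 1.96 CPM in Astro libraries. BAL 2 was thus its lowest SB28 library, as it was for *Itga3* (96.3, 37.6 and 119.5 CPM in BAL libraries 1, 2 and 3), *Itgb3*, *Itga5*, *Itga2* and *Lamb3*, whereas it was the highest for *Tnc*, *Lama2* and *Lamc3*. *Itgb1bp1*, a regulator that binds the β1 tail, had 36.3, 32.3 and 33.6, 31.3, 32.9 and 28.5 and 17.8, 18.4 and 19.4 CPM in the 3 groups. *Itgb2l* had no read in the 6 SB28 libraries and 4, 10 and 2 reads in the Astro libraries.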
